A study of Mus musculus with 2 samples.

Results

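Genes of the cell cycle and DNA replication were compared between 2 preparations of mouse bone marrow-derived macrophages, 1 with a working c-Maf allele and 1 without. The set was a list of 52 genes drawn up by function: 15 genes of DNA replication and nucleotide supply, 15 cyclins, cyclin-dependent kinases (CDKs) and CDK inhibitors, 19 genes of mitosis, and the transcription factors E2f1, E2f8 and Foxm1. All 52 had probes on the array, 48 of them with at least 1 probe well above background on both arrays, out of 12408 genes measured in that way and 22617 genes with a matched name. The members were picked by function and not by their values in these arrays, but with earlier results of the same arrays known.

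Marrow cells, labelled c-Maf+/- or c-Maf-/-, had been grown into macrophages for 5 days with M-CSF from the medium of the CMG14-12 producer line. Both genotypes then received lipopolysaccharide (LPS), the bacterial cell wall component sensed by Toll-like receptor 4, at 100 ng/ml for 5 h. Neither an untreated culture nor a wild-type culture was analysed here, so the comparison is between a heterozygote and a null, both treated. The labels give no age, sex or number of mice and do not describe the Maf allele. With 1 one-colour array per genotype there is no replicate, the genotypes could not be tested, and all differences given are those between 2 arrays.

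Maf, the gene of the basic leucine zipper factor c-Maf, had signals of 15101 and 541 at its 2 probes in c-Maf+/- cells but 12.6 and 5.96, below the detection call, in c-Maf-/- cells. Similar shares of the 59305 non-control spots were detected above background, 45.3% in c-Maf+/- and 44.9% in c-Maf-/-. Of 12 macrophage markers, 11 were measured on both arrays, with Cd163 not above background on either, and their median difference was -0.03. A difference is the log2 signal in c-Maf-/- minus that in c-Maf+/-, each relative to the 75th percentile of its array, and a level is the signal itself in scanner units. Levels are set side by side for the same probe or gene between arrays, never between probes.

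Cells copy their DNA in S phase and separate the copies in mitosis. The MCM helicase opens the template at licensed origins, the PCNA ring clamps the polymerases to it, and ribonucleotide reductase, thymidylate synthase and thymidine kinase supply the nucleotides. D-type cyclins with CDK4 or CDK6, then cyclin E and cyclin A with CDK2, phosphorylate RB family proteins, which frees E2F factors to transcribe the replication genes. Cyclin B with CDK1 and the factors FOXM1 and MYB-MuvB act later, on the mitotic genes. Macrophages growing in M-CSF divide, and LPS is known to halt that division.

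Promoters are shown first because these 2 gene groups are classically told apart there: E2F elements mark replication genes, and the cell cycle genes homology region (CHR) marks mitotic genes. Stretches are the 180 bases before a RefSeq gene start in mouse build GRCm38.p6, written 5′ to 3′ in the direction of the gene. Capitals mark E2F letters (TTTCCCGC, TTTCGCGC, TTTGCCGC or TTTGGCGC) or CHR letters (TTTGAA or TTCGAA), on either strand, and neighbouring or overlapping matches run together. Pcna (chr2:132253181-132253360, minus strand) and Mcm7, from its 2 listed starts (chr5:138171267-138171446 and chr5:138171884-138172063, minus strand), are the replication members with the lowest differences. Cdkn1b (chr6:134920221-134920400, plus strand) had the highest difference of all members, and Ccnd2, which had the lowest, had no entry in the promoter table. Mcm6 (chr1:128359706-128359885, minus strand), Cdk1 (chr10:69352913-69353092, minus strand), Cdc20 (chr4:118437344-118437523, minus strand) and Top2a (chr11:99024190-99024369, minus strand) were added, after their values and letters were seen, to show the elements.
Pcna: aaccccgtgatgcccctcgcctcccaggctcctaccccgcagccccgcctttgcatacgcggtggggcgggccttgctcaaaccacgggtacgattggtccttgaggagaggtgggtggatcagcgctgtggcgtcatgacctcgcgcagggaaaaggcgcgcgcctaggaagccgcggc
Mcm7, first start: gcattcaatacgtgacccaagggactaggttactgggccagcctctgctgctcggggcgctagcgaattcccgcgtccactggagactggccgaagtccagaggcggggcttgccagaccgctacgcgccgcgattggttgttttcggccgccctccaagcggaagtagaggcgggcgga
Mcm7, second start: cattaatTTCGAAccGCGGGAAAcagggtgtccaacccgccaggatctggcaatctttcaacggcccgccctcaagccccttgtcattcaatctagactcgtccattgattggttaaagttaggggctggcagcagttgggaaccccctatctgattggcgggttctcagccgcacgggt
Mcm6: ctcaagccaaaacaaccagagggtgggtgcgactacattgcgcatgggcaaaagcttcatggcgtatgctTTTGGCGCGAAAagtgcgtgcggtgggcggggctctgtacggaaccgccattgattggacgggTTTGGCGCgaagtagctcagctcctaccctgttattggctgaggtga
Cdk1: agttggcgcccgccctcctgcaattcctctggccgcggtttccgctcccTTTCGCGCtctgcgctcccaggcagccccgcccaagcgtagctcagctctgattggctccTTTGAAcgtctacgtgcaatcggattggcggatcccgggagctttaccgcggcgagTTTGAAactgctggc
Cdc20: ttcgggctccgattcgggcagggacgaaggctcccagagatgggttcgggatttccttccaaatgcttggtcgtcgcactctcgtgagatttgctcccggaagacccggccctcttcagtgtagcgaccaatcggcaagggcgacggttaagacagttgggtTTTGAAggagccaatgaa
Top2a: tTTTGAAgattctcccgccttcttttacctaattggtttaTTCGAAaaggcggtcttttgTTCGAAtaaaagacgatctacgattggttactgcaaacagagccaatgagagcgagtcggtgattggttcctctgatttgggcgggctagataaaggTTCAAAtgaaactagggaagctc
Cdkn1b: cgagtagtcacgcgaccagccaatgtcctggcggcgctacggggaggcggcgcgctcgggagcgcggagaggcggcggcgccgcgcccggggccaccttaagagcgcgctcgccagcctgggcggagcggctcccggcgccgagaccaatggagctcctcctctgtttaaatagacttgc
Mcm6 held E2F letters at 2 places and Cdk1 held both kinds, 1 E2F match and 2 CHR matches. The second Mcm7 start held 1 match of each kind, side by side, the first start neither, and neither element was found in the Pcna and Cdkn1b stretches. Cdc20 and Top2a held CHR letters and no E2F letters.

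Over the full window of the table, 250 bases before to 50 after the start, 42 of the 52 members had an entry. E2F letters were present for 6 of 13 replication genes (46.2%), 2 of 11 cyclin, CDK and inhibitor genes (18.2%) and 0 of 16 mitosis genes, against 2.6% of the 27025 genes in the table. The 6 were Cdc6, Mcm3, Mcm5, Mcm6, Mcm7 and Uhrf1. The share over all genes was not matched for base composition. Median GC content was 57.7% for replication, 64.7% for cyclin group and 60.7% for mitosis promoters, against 52.7% over the table. CHR letters, which are shorter and so occur more often anywhere, were present for 14 of 16 mitosis genes (87.5%) and 2 of 13 replication genes (15.4%), against 21.7% of all genes. The CCAAT box, searched as CCAAT on both strands, was present for 69.2% of replication and 87.5% of mitosis genes, against 41.1% of all genes. The core letters of a Maf recognition element (TGCTGA, both strands) were present for 1 of 13 replication genes, Uhrf1, and 3 of 16 mitosis genes, Bub1, Kif11 and Plk1, and 3 of 11 genes of the cyclin group (27.3%), Ccnd3, Cdkn1a and Cdkn2c, against 21.7% of all genes. A match describes these letters in this window and is no evidence that a factor binds there.

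**Figure D1:**
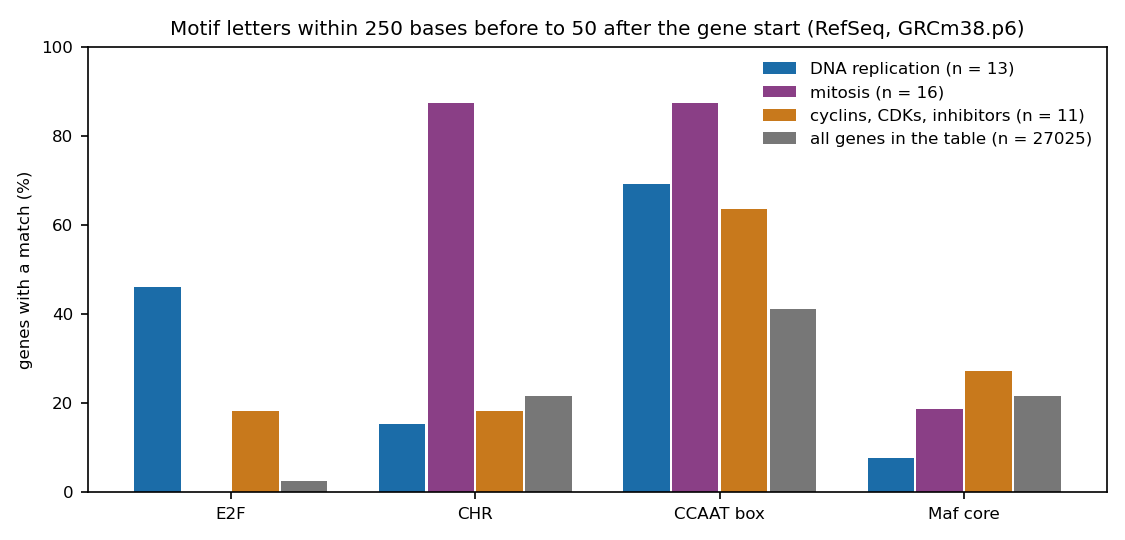
Share of genes (%, vertical axis from 0) with at least 1 match to each motif (horizontal axis) in the window from 250 bases before to 50 after the start. Bars are replication, mitosis and cyclin group members and all genes in the RefSeq table; E2F letters were present for 46.2% of replication and 0 of 16 mitosis genes, CHR letters for 15.4% and 87.5%.

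Across the 48 measured members the median difference was -0.19, against -0.02 over all 12408 genes, whose differences had an SD of 0.41 and quartiles of -0.20 and 0.16. Of the members 33 lay below 0 and 15 above, while 53.7% of all genes lay below 0. A small-size threshold was set at a log2 difference of 0.32, which is a signal ratio of 5 to 4. At least that much lower in c-Maf-/- were 16 members, against 16.2% of all genes, and 4 were as much higher, against 13.5%. At 1.5-fold, 2 members were lower, Ccnd2 and Pcna (all genes 6.5%), and 2 higher, Ccnd3 and Cdkn1b (all genes 5.38%). At 2-fold, 0 members were lower (all genes 1.73%) and Cdkn1b alone was higher (all genes 1.43%). The excess over the background was thus in small differences below 0.

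3 measures of precision come from within the arrays, and none holds the spread between cultures or mice. Differences of repeated spots had a median SD of 0.06 over 211 probes with at least 8 spots, and probes of the same gene a median SD of 0.09 over 3452 genes. The error that the scanner software assigns to each signal came to at least 0.204 for the difference of any measured member probe, with a maximum of 0.316 for the dim probe of Kif11. For a gene with several probes the probe errors were combined as if independent, which gives a smaller error, such as 0.146 for Tk1. By these gene errors, 11 of the 48 members lay more than 2 errors below 0, against 12.5% of all genes. As far above 0 lay 3, against 9.62%. Scaling on the 8 spike-in transcripts in place of the 75th percentile moved every difference upward by 0.15 and the median of all genes to 0.12, so differences between -0.15 and 0 turn above 0 there, and medians are best read against all genes.

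**Figure D2:**
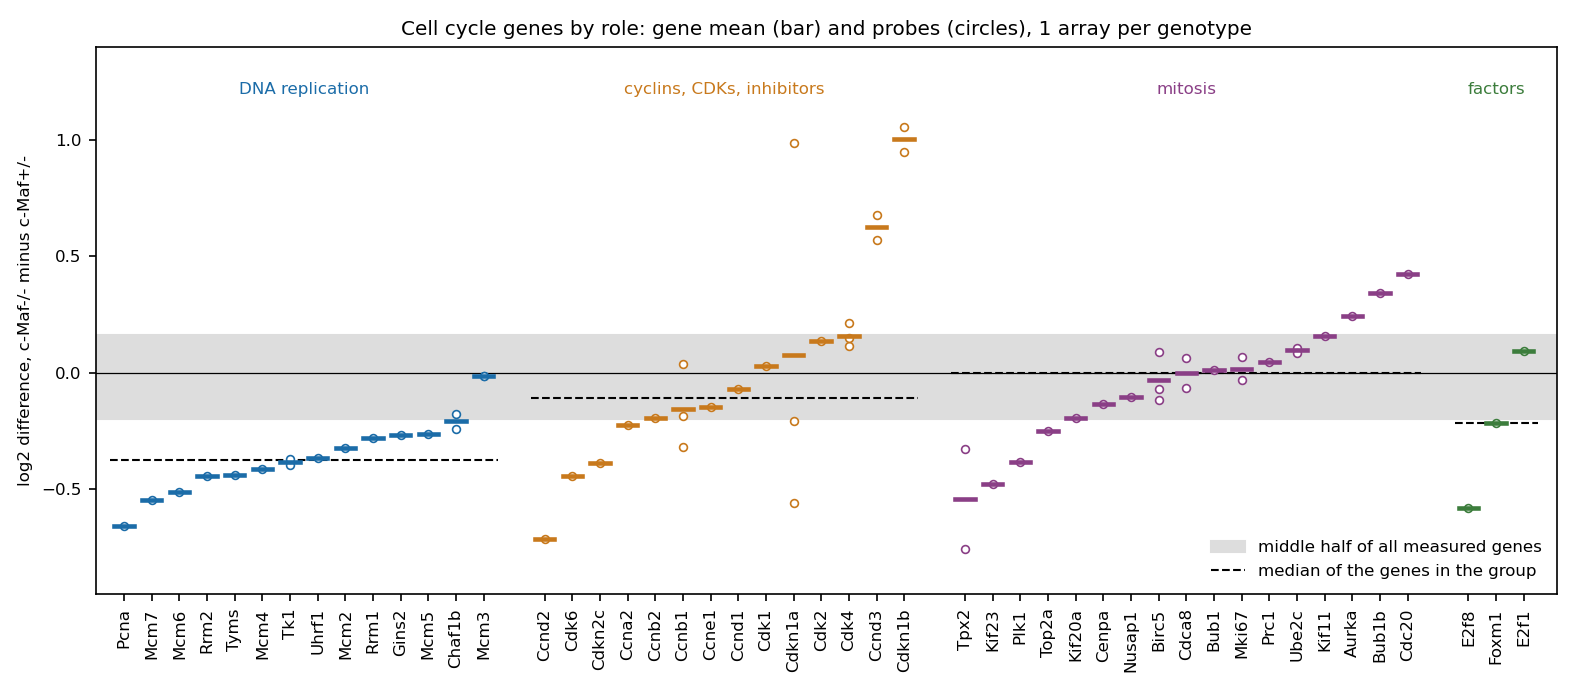
Log2 difference (vertical axis, c-Maf-/- minus c-Maf+/-) of each measured gene (bar) and its probes (circles), in order within each role, with the group median dashed and the quartile range of all measured genes, -0.20 to 0.16, in grey. All 14 replication genes lie below 0, while mitosis genes run from Tpx2 at -0.54 to Cdc20 at 0.43 around a median of -0.00.

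Replication genes measured on both arrays were lower in c-Maf-/- by small amounts. All 14 had a difference below 0 (53.7% of all genes), with a median of -0.38, a 1.30-fold lower signal. Of these 14, 9 were lower by at least 0.32 (all genes 16.2%), and Pcna was the only one past 1.5-fold. More than 2 errors of the scanner software below 0 were 7 (all genes 12.5%). Of the 7, Tk1 passed only by its combined error, since neither of its 2 measured probes lay past 2 of its own errors. Mcm2, Mcm3, Mcm5, Gins2, Rrm1, Uhrf1 and Chaf1b lay within 2 errors of 0. Mcm3 lay at -0.02 and turned to the other side of 0 under 4 other scalings, and the remaining 13 kept their sign in every setting run.

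Pcna, the sliding clamp, measured 27636 in c-Maf+/- against 17831 in c-Maf-/-, a difference of -0.66 from 1 probe (chromosome 2, 132075022 to 132075054 in build mm9, transcript base 1158 onwards, minus strand). That is 1.58-fold lower, and 5.13% of all measured genes lay lower still. Among 10 settings that give Pcna a value its difference ranged from -0.66 to -0.51. Settings that vary the choice of probes or the filter on dim probes could not change it, since Pcna has 1 bright probe. Pcna was thus lower under each background correction and scaling, from a bright spot on both arrays.

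The MCM subunits, which form 1 hexameric helicase, were all below 0, with a median of -0.37. Mcm7 had signals of 2580 and 1796, a difference of -0.55 (chromosome 5, 138605925 to 138605984, mm9, minus strand). Mcm6 had signals of 27603 and 19663, a difference of -0.52 (chromosome 1, 130228178 to 130228237, mm9, minus strand). Mcm4 went from 3050 to 2332 (-0.41). The other subunits were closer to 0. Mcm2 had signals of 420 and 342 (-0.32), and Mcm5 of 3529 and 2995 (-0.26). The 2 probes of Mcm3, which share 29 bases and so are not independent, had signals of 3045 and 3066, and of 1946 and 1959, both a difference of -0.02. The subunit transcripts ranged from -0.55 to -0.02 on these arrays. Most rest on 1 probe, with a scanner software error of at least 0.204, and whether the subunits differ from each other was not tested.

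Nucleotide supply genes were lower by a like amount, with a median of -0.41 over 4 members. Rrm2, the S phase subunit of ribonucleotide reductase, had signals of 795 and 594 (-0.45). Its partner Rrm1, whose protein is kept more evenly through the cycle, had 3193 and 2676 (-0.28). Thymidylate synthase, Tyms, had 1375 and 1032 (-0.44). Thymidine kinase 1, Tk1, had 2 measured probes that lay close together, at -0.40 (signals 1663 and 1285) and -0.37 (330 and 260), with a further probe above background on neither array. It was the member of this group whose value 2 probes at different places on the transcript shared.

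Of the remaining replication genes, Uhrf1, which directs DNA methylation to newly made strands, had signals of 1154 and 910 (-0.37). A second Uhrf1 probe, 53.1 and 11.4, was well above background in c-Maf+/- alone, and was 2.24-fold lower in c-Maf-/- by a floored ratio. Such a ratio takes the lowest signal called above background on the dim array, 24.2 there and 22.3 in c-Maf+/-, in place of the dimmer value where that is higher. It is no strict bound, since some brighter probes were not called, such as Mmp9 at 43.3 in c-Maf+/- and Myb at 31.2 in c-Maf-/-. Gins2, a subunit of the helicase's GINS partner, had 872 and 736 (-0.27). Chaf1b, of the histone chaperone that packs new DNA, had 2 probes at -0.24 and -0.18. Cdc6, the MCM loader, could not be given a difference. Of its probes 1 had signals of 17.1 and 34.8 and was above background in c-Maf-/- alone, 1.53-fold higher there by the floored ratio. Its other probe was above background on neither. Cdc6 is therefore the replication member whose floored ratio went the other way, at a signal near the floor that does not settle its direction.

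**Figure D3:**
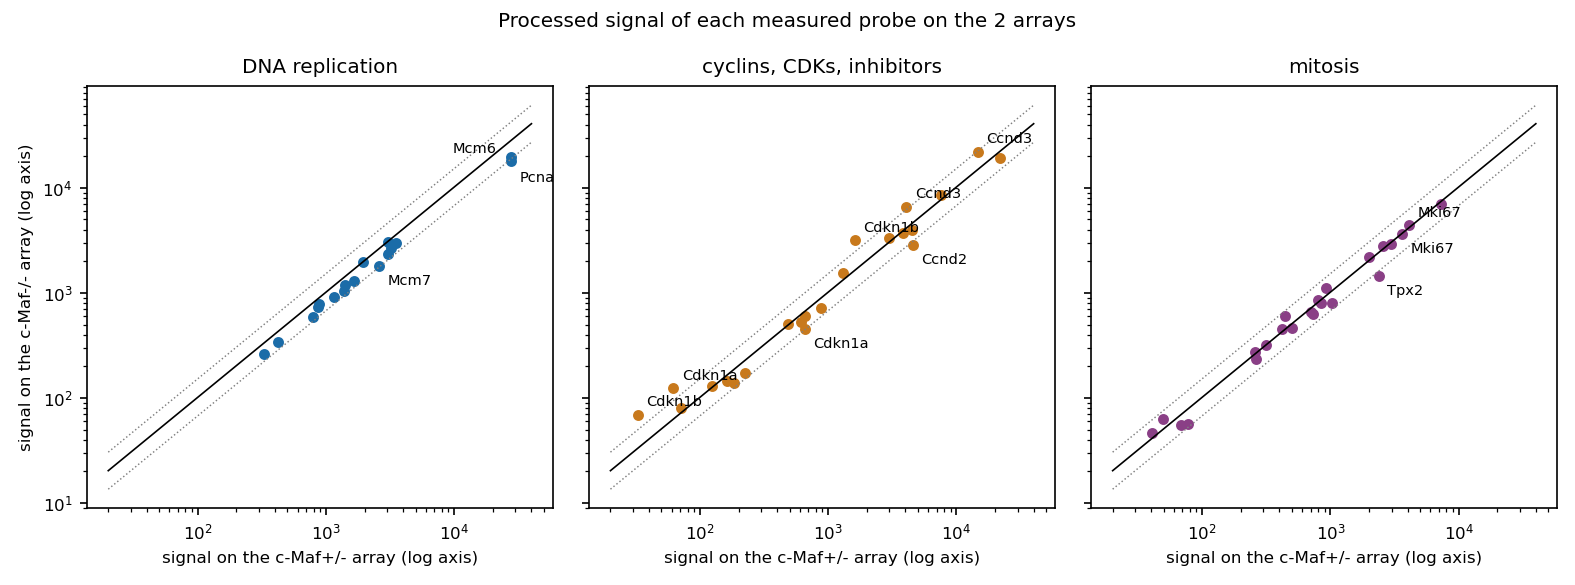
Processed signal of each measured probe on the c-Maf+/- array (horizontal, log axis) and the c-Maf-/- array (vertical, log axis), in scanner units, with equal scaled signals as the solid line and 1.5-fold either way dotted. Replication probes lie on or under the solid line from 330 up to 27636, whereas cyclin and inhibitor probes lie on both sides, Ccnd2 below and Ccnd3 and Cdkn1b above.

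Among cyclins, CDKs and inhibitors, single genes stood far apart around a median of -0.11 over 14 measured members, which turned to 0.04 with spike-in scaling. Of these, 8 lay below 0 and 6 above. Past 0.32, 3 were lower (all genes 16.2%) and 2 higher (all genes 13.5%). The D-type cyclins, which link growth factor signals to the cycle, went 3 ways. Ccnd2 had signals of 4597 and 2850, a difference of -0.72 from 1 probe (chromosome 6, 127098696 to 127098755, mm9, minus strand), the lowest of all members. Ccnd3 had signals of 4064 and 6622 at 1 probe (0.68) and of 14615 and 22113 at the other (0.57), a mean of 0.63 (chromosome 17, 47736267 to 47736326 and 47736579 to 47736638, mm9, plus strand). Ccnd1 had 3808 and 3696 (-0.07), and turned above 0 with spike-in scaling. Ccnd2 was therefore 1.64-fold lower and Ccnd3 1.54-fold higher, each with the same sign in every setting run. The settings on the choice of probes could not change Ccnd2, which has 1 probe.

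The later cyclins were closer to 0. Ccna2, of S and G2 phase, had signals of 608 and 530 (-0.23). Ccnb2 had 4479 and 3979 (-0.20), and Ccne1, of the entry into S phase, 655 and 603 (-0.15). Ccnb1 had 3 probes, at 0.04, -0.19 and -0.32, the last with signals of 883 and 721. Ccne2 was not well above background on either array, at signals of 4.43 and 4.83. The 4 measured cyclins of types A, B and E lay below 0 (53.7% of all genes), none of them past 0.32, and Ccne1 turned above 0 with spike-in scaling.

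The kinases differed little apart from Cdk6. Cdk6, a partner of the D-type cyclins, had signals of 184 and 138 (-0.44). Cdk4, its close relative, had 3 probes between 0.12 and 0.21, with a mean of 0.16. Cdk2 had 71.6 and 80.1 (0.14). Cdk1, the mitotic kinase, had 482 and 501 (0.03) at its measured probe. Another Cdk1 probe, which shares 41 bases with the first, had 38.0 and 24.7 and was above background in c-Maf+/- alone. Its difference of -0.65 carried a scanner software error of 0.50, so these dim signals do not settle whether the 2 probes differ.

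Cdkn1b, which encodes the CDK inhibitor p27, had the highest difference of all members. Its signals were 1617 in c-Maf+/- and 3172 in c-Maf-/- at 1 probe (0.95; chromosome 6, 134875424 to 134875483, mm9, plus strand). They were 32.7 and 69.4 at a dim second probe (1.06; 134873606 to 134873665). The mean was 1.0, a 2.0-fold higher signal, with 98.6% of all measured genes lower. Both probes showed it, and over 10 settings the value ranged from 0.71 with normexp background correction to 1.15 with spike-in scaling. It lay within 2-fold in 4 settings: the brightest probe (0.95), no background subtraction (0.77), normexp, and a signal of at least 100 (0.95).

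The related inhibitor gene Cdkn1a, which encodes p21 and responds to p53, gave no single value. A bright probe with 10 spots on each array had 21951 and 19368 (-0.21, SD over spots 0.02; chromosome 17, 29237377 to 29237436, mm9, plus strand). A probe near the start of another listed transcript had 653 and 451 (-0.56; 29227986 to 29228045). One on a further transcript model had 61.8 and 125 (0.99; 29235299 to 29235358). The mean of 0.07 had the opposite sign of the bright probe and turned below 0 in 5 of 10 settings. Cdkn2c, an inhibitor of CDK4 and CDK6, had signals of 224 and 174 (-0.39). The 3 inhibitors therefore lay at 1.0, 0.07 and -0.39, with the middle one unsettled between its probes.

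**Figure D4:**
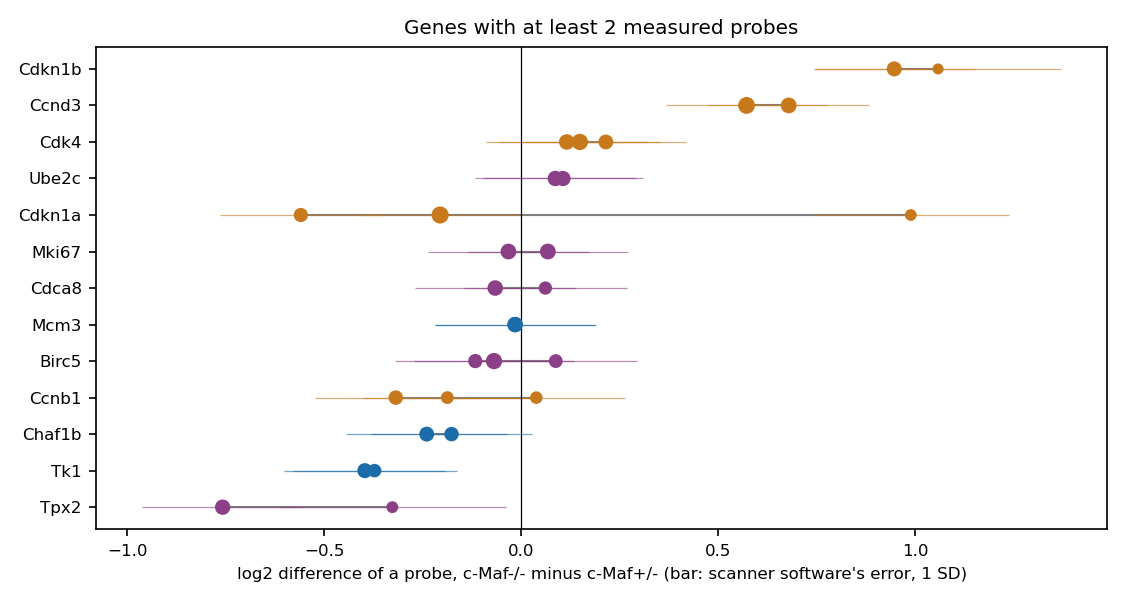
Log2 difference (horizontal axis, c-Maf-/- minus c-Maf+/-) of each measured probe of the 13 members with at least 2, with bars of 1 SD from the scanner software's error and larger points for brighter probes. Cdkn1b and Ccnd3 have both probes well above 0, while the 3 Cdkn1a probes run from -0.56 to 0.99.

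Mitosis genes lay around 0 with no common direction. Of 17 measured, 9 were below 0 and 8 above, with a median of -0.00. Lower by at least 0.32 were 3 (all genes 16.2%), Tpx2, Kif23 and Plk1, and 2 were as much higher (all genes 13.5%), Cdc20 and Bub1b. Mki67, the nuclear protein used to stain cycling cells, had signals of 4129 and 4404 at 1 probe and 3635 and 3618 at the other, a mean of 0.02. Top2a, which untangles sister chromatids, had 733 and 626 (-0.25). Birc5, or survivin, had 3 probes at -0.12, -0.07 and 0.09. These 3 lay within 0.32 of 0. Pcna, also used as a marker of dividing cells, lay at -0.66. Mcm2, another such marker, lay at -0.32, close to Top2a, and both were within 2 errors of the scanner software of 0.

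The lowest mitosis member was Tpx2. Tpx2, which activates Aurora A on the spindle, had 2393 and 1440 (-0.76) at 1 probe and 67.9 and 55.1 (-0.33) at a dim one, a mean of -0.54. Kif23, a kinesin of the cleavage furrow, had 77.1 and 56.4 (-0.48), with a range of -0.50 to -0.19 over 9 settings. Plk1, the mitotic kinase, had 1025 and 799 (-0.39). Kif20a lay at -0.19 and Cenpa, the centromere histone, at -0.14, while Nusap1 lay at -0.10, Prc1 at 0.05 and Kif11 at 0.16. Among mitosis members Tpx2 alone was more than 2 errors of the scanner software below 0.

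The highest mitosis member was Cdc20. Cdc20, an activator of the anaphase-promoting complex, had signals of 439 and 601 (0.43; chromosome 4, 118105534 to 118105593, mm9, minus strand). The spindle checkpoint gene Bub1b had 49.4 and 63.7 (0.34), and Bub1, its relative, read by 10 spots on each array, 313 and 321 (0.01, SD over spots 0.10). Ube2c, a ubiquitin-conjugating enzyme of that complex, had 2 probes at 0.11 and 0.09, and Cdca8, of the chromosomal passenger complex, 2 at -0.07 and 0.06. Aurka had 927 and 1117 (0.24). Aurkb (10.9 and 6.65) and Cenpf (5.76 and 6.16) were not well above background on either array. Cdc20 was the 1 mitosis gene more than 2 errors above 0.

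The factors that drive these programmes were measured too. E2f1, an activator, had signals of 1175 and 1278 (0.10), and E2f8, a repressor that is itself made in S phase, 245 and 167 (-0.58). Foxm1, the activator of mitotic genes, had 205 and 179 (-0.22), and its other probe was above background on neither array. E2f8, which lay just short of the 1.5-fold count, was the 1 factor of the 3 more than 2 errors from 0.

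The replication median lay 0.37 below the mitosis median, given here as a description since genes are not replicates of a condition. No replication member lay above the mitosis median, and 3 mitosis members, Tpx2, Kif23 and Plk1, lay below the replication median. The order was the same in each of the 12 other settings, but not all of these could change it. Spike-in scaling and scaling on the median gene shift all genes alike and leave the gap as it was. Taking the brightest probe or the median over probes leaves genes with 1 measured probe unchanged. The size of the gap depended on which genes had several probes. The 3 replication genes with at least 2 measured probes, Mcm3, Tk1 and Chaf1b, had a median of -0.21, against -0.41 for the 11 with 1. Over all members, 13 with at least 2 measured probes had a median of -0.00 and 35 with 1 had -0.25, whereas both medians were -0.02 over all genes. Of those 13, 8 had probes of 1 sign and 5 of both signs.

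**Figure D5:**
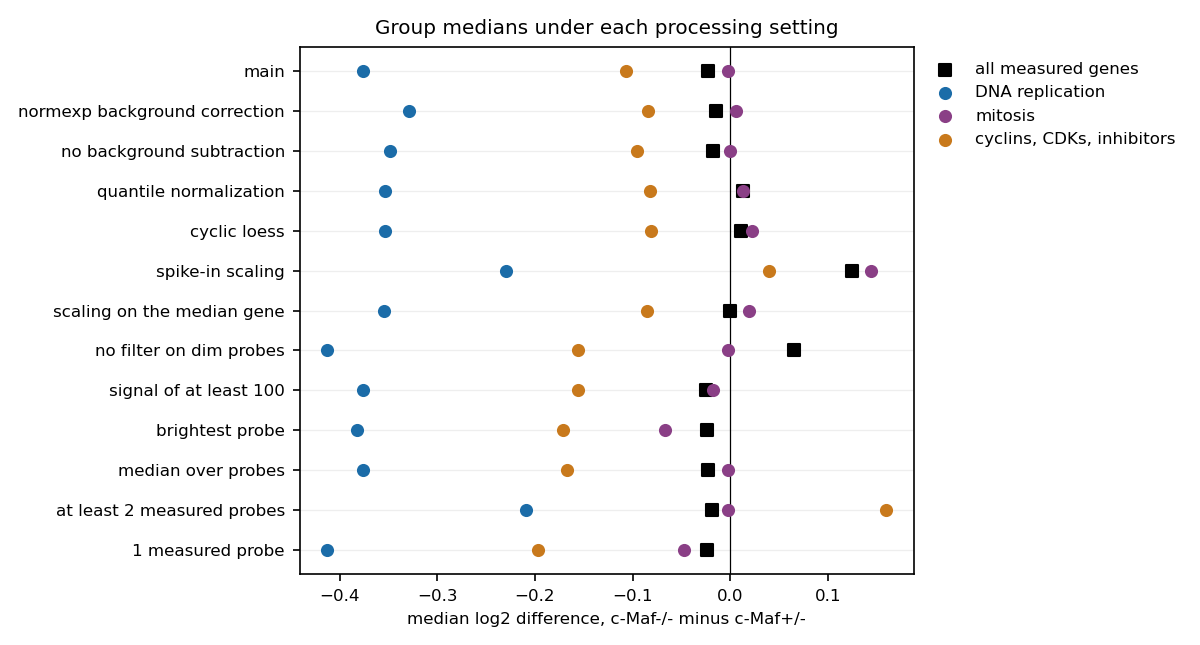
Median log2 difference (horizontal axis, c-Maf-/- minus c-Maf+/-) of replication, mitosis and cyclin group members and of all measured genes under each processing setting (rows). Replication is lowest in every row, from -0.41 to -0.21, and spike-in scaling moves every group upward, with all genes at 0.12.

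Larger lists of the same processes, which hold none of the 52 members, did not show the same order. Of 53 further replication genes 46 were measured, with a median of -0.08, 27 below 0 (all genes 53.7%), 8 lower by at least 0.32 (all genes 16.2%) and 5 as much higher (all genes 13.5%). Among the lowest were the clamp loader subunit Rfc3 (-0.68) and the dUTPase Dut (-0.59). The highest were Dtl (0.92), which targets the licensing factor CDT1 for destruction, the licensing inhibitor Gmnn, or geminin (0.41), and the helicase Hells (0.40). Dtl and Hells were dim, at signals of 34.2 and 36.6 in c-Maf+/-.

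Of 70 further mitosis genes 55 were measured, with a median of -0.15, below that of the further replication genes. Of these, 39 lay below 0 (all genes 53.7%), 18 were lower by at least 0.32 (all genes 16.2%) and 2 as much higher (all genes 13.5%). The chromokinesin Kif4 (-0.94), the condensin subunit Ncapg2 (-0.84) and the kinetochore motor Cenpe (-0.82), with signals of 3783 and 2175, were lowest. The condensin subunit Ncapd3 (0.42), Incenp (0.33), of the chromosomal passenger complex, and Sgo1 (0.31), the guardian of centromeric cohesion, were highest. The near-0 median of the 17 mitosis members was therefore not shared by these 55 genes, nor was the order of replication below mitosis.

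Regulators beyond the members went both ways, with a median of -0.02 over 41 measured. The CDK inhibitor Cdkn2b (-0.59), the RB relative Rbl1, or p107 (-0.54), and the repressor E2f7 (-0.54) were lowest. The activator E2f2 (1.11, signals 230 and 506), the RB relative Rbl2, or p130 (0.75), and the cyclin F gene Ccnf (0.69) were highest. E2f7 and E2f8, paralogous repressors, were thus both lower. Of 19 genes known as p53 targets, 17 were measured with a median of 0.05, from Plk2 (-0.69), Phlda3 (-0.61) and Fas (-0.42) to Zmat3 (0.27), Plk3 (0.57) and Sesn2 (0.94).

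Growth signal genes, the receptors and early response factors upstream of the D-type cyclins, had a median of -0.23 over 16 measured, with 11 below 0 (all genes 53.7%). Mycl (-1.45), Egr1 (-0.88) and Egr2 (-0.72) were lowest, and Klf2 (0.24), Jun (0.28) and Csf2rb (0.56), the shared receptor chain for GM-CSF, highest. Myc, a driver of growth, had signals of 419 and 345 (-0.31). Csf1, the gene of M-CSF itself, lay at -0.57 over 3 probes from -1.05 to -0.32. Csf1r, the M-CSF receptor gene, lay at -0.03 over 3 probes.

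Markers of other marrow cells differed between the same arrays. Of 10 progenitor markers 7 were measured, 6 below 0, with a median of -1.21 and signals that summed to 4588 in c-Maf+/- against 3195 in c-Maf-/-. Cd34 was at -1.21, Mpo at -1.21 and Elane at -0.03, and Kit was above background on neither array. Myb (65.8 and 31.2) was above background in c-Maf+/- alone, and Gata2 (16.0 and 30.0) in c-Maf-/- alone. Of 12 neutrophil markers 9 were measured, 6 below 0 and 3 above, with a median of -0.62. At 2-fold, 3 were lower (all genes 1.73%) and 0 higher (all genes 1.43%). Their summed signals were 196674 and 177011. Lcn2 (71434 and 93371) and S100a9 (68498 and 34671), which went opposite ways, made up most of these sums, so they say little of the dimmer markers. Cxcr2 and Retnlg were above background on neither array, and Mmp9 (43.3 and 41.5) in c-Maf-/- alone. Of 11 erythroid markers 5 were measured, 4 above 0, with a median of 0.71 and summed signals of 331 and 505. All were dim apart from Hba-a2 (172 and 273): Gata1, at the median, had 41.2 and 68.6, Slc4a1 33.4 and 56.0, and Hba-a1 30.7 and 55.4. Klf1, Alas2, Epor and Hbb-b1 were among those above background on neither. The part of these cells in the cell cycle differences was not tested, and in such bulk RNA fewer cycling cells and less transcript per cell cannot be told apart.

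The remaining marker lists were small or mixed. The median was -0.60 for dendritic cell markers, 7 of 10 measured, with summed signals of 44634 and 46526. A single Siglech probe (41554 and 43949) made up most of these sums, so they say little of the other markers. Of the 3 Siglech probes, only this 1 was above background on either array. Cd209a and Xcr1 were above background on neither array, and Clec9a (36.0 and 22.0) in c-Maf+/- alone. Lymphocyte markers had a median of -0.07 over 5 of 10 (4685 and 4070), with Cd3g, Klrb1c, Ms4a1 and Ncr1 among those above background on neither. Mast cell and basophil markers had a median of -0.06 over 3 of 9 (8025 and 7777, mostly Hdc at 7626 and 7433). Fcer1a, Mcpt4, Mcpt8 and Ms4a2 were above background on neither. Outside that median, Cpa3 had signals of 80.8 and 9.52 and was above background in c-Maf+/- alone. Stromal markers had a median of -0.36 over 6 of 10 (8997 and 9118), sums that came mostly from 1 Kdr probe (6978 and 7858). Lum and Pdgfra were above background on neither, and Cdh5 (65.8 and 28.9) and Col3a1 (32.0 and 17.1) in c-Maf+/- alone. Their part was not tested either.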

How the data were processed

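RNA of 2 macrophage cultures was measured on Agilent one-colour arrays of design 028005, both on 1 slide. The input was 50 ng of RNA per Cy3 labelling, per the labels' protocols. Agilent Feature Extraction 10.7.3.1 produced the deposited linear intensities, per the file headers. They were background-subtracted within each array and not normalized between arrays, per the file headers.

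From log2 of each deposited intensity the array's 75th percentile over non-control spots (signals of 291 and 296) was subtracted. Outlier spots (136 and 149) were dropped and 0 spots were saturated. Spots were averaged, then probes well above background on all usable spots of both arrays. With 1 array per genotype no p-value was computed, and the number of arrays limits every value. Background correction, scaling, the filter on dim probes and the use of probes were varied with limma 3.58.1 in R 4.3.3 and pandas 2.3.3. The averaging was tested on simulated data.

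Names were matched through RefSeq. The probe's accession matched for 28026 probes and its symbol for 3418, while 103 needed a different accession and 270 a former symbol. The 23864 unmatched probes entered no count. Probe coordinates are the files' own, mm9. Exons and UTRs were not assigned, and promoters come from a RefSeq table of build GRCm38.p6. Probes of many members lie near the transcript's end, so isoforms that end elsewhere can be missed.

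The members and lists were chosen with earlier results of these data known. All members are named, with the 3 lowest and 3 highest genes of each wider list, and Maf, Myc, Csf1 and Csf1r whatever their value. A few genes that the lists or this rule take are not reported here. Of the other cell type markers, examples were picked after their values were seen. Promoters beyond Pcna, Mcm7 and Cdkn1b were added after the values were seen.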

Additional observations from a re-analysis of the deposited data

How the results depend on the processing

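The replication median stayed below 0 in all 12 alternatives, from -0.41 (1 measured probe, or no filter on dim probes) to -0.21 with at least 2 measured probes and -0.23 with spike-in scaling. With spike-in scaling, which moves every gene upward by 0.15 (8 spike-ins, mean -0.15, SD 0.05), the median was -0.05 over all members, 0.14 for mitosis and 0.04 for the cyclin group, the last on the other side of 0, while all genes lay at 0.12. With at least 2 measured probes the median over all members was -0.00, 7 of 13 members lay below 0, and the cyclin group was at 0.16, again reversed. The cause of the difference between genes with 1 and with several probes was not tested. Of 48 members, 38 kept their sign in every setting. No paired analysis was possible because each genotype has 1 array and the labels carry no replicate numbers. Leaving out a replicate was impossible for the same reason. Signals near background limit Kif11, Kif23, Bub1b, Cdc6 and the dim Cdkn1b probe.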
